A study of Mus musculus with 12 samples.

Results

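The genes for the 5 subunits of NF-kB (Nfkb1, Nfkb2, Rel, Rela and Relb) were followed through every condition of a microarray study of mouse resting B (RB) cells. They were taken by gene symbol: 7 of the 61307 probes on the array carried one of these 5 symbols, among 50090 symbols in all. Nfkb1, Nfkb2 and Relb had 1 probe each and Rel and Rela had 2 each, and a gene was described by its brightest probe. All 7 probes were well above background on all 12 arrays, so each gene was measured in every sample.

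The study asked whether a Toll-like receptor signal and a costimulatory signal act together on B cells without the B cell receptor. RB cells were obtained from spleens of BALB/c mice, given in the labels as female and 6 weeks old, by negative selection on CD43, and RNA was taken after 4 h in culture. The 6 conditions were unstimulated cells, Pam2CSK4 (a lipopeptide ligand of TLR2), anti-CD86, anti-CD86 with Pam2CSK4, anti-CD40, and anti-CD40 with Pam2CSK4, with 2 arrays each. No animal carried an engineered allele according to the labels, anti-CD86 was crosslinked on the cells, and an isotype control was not analysed here.

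NF-kB proteins bind DNA as dimers, and in resting cells most of them are held in the cytoplasm by inhibitors of the IkB family. In the canonical pathway, which Toll-like receptors and CD40 both engage, the IKK complex marks IkB proteins for degradation and frees dimers that contain the products of Rela, Rel and Nfkb1. In the non-canonical pathway, which CD40 and other receptors of its family engage, the kinase NIK (Map3k14) drives the processing of the Nfkb2 precursor, and the mature product pairs with Relb. In B cells NF-kB is known for its part in survival, growth and activation, and several of the subunit genes are themselves known targets of NF-kB.

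Sequence upstream of the start site was looked at because several of the 5 genes rose together in the anti-CD40 conditions. The RefSeq table for GRCm38.p6 matched 3 of the 5 genes, Nfkb2 with 3 start sites and Rel and Rela with 1 each. The 250 bases before each start were searched on both strands for the kB consensus, which reads 3 G, a purine, any base, 3 pyrimidines and 2 C. It was found at 1 of 3 Nfkb2 starts in a cluster next to the start, at another Nfkb2 start once, and at the Rel start, and no match lay in the Rela window. Of all 32851 windows of this length, 5.0% held the consensus, while a looser form with any 5 bases in the middle was held by 45.8% and was not used. The share of G and C bases had a median of 52.4% over all windows. It was 64.8% (Nfkb2), 77.6% (Rel) and 70.4% (Rela) in the windows printed below, and the 5.0% was not matched for it. Printed are the Nfkb2 window with the cluster (chr19:46304487-46304736, plus strand), the Rel window (chr11:23770970-23771219, minus strand) and, as the window without a match, that of Rela (chr19:5637291-5637540, plus strand). Each reads 5′ to 3′ on the strand of the gene and ends at the base before the start, and capitals mark the bases of a consensus match.
Nfkb2: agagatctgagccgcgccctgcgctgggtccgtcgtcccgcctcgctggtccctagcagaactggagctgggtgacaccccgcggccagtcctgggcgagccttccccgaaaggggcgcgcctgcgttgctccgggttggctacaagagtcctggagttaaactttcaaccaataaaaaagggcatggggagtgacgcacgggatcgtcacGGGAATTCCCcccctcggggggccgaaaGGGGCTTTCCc
Rel: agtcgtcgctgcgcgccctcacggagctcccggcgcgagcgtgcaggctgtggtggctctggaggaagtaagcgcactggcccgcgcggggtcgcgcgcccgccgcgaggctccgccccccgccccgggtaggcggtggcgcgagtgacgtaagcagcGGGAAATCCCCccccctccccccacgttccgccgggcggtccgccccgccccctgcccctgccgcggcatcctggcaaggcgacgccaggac
Rela: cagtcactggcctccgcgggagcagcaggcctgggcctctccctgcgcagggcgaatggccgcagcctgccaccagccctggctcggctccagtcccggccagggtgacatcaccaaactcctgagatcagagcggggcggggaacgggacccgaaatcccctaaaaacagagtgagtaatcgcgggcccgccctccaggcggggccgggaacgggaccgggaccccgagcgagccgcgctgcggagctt
In the Nfkb2 window a match that reads the same on both strands (GGGAATTCCC) lay 39 to 30 bases before the start and another (GGGGCTTTCC) 11 to 2 bases before it. In the Rel window 2 overlapping matches on the opposite strand covered the bases 92 to 82 before the start. These are matches of letters, and binding was not measured.

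The values were log2 processed intensities from which the log2 of the 75th percentile of the same array was subtracted, so that a value of 4 stands 4 doublings above that percentile. Between 46.6% and 60.6% of the spots of an array were well above background. The arrays lay on 2 slides, and this bears on every result here. Slide 1 held 8 arrays, among them both unstimulated ones and both with anti-CD40 and Pam2CSK4, whereas each of the other 4 conditions had 1 array per slide. The median intensity was 17.3 to 23.6 on slide 1 and 31.0 to 51.3 on slide 2. In each of the 4 conditions that had an array on both slides, every subunit gene was lower on slide 2, by a median of 0.12 (Rel) to 0.42 (Nfkb2) on the log2 scale. This was shared with other bright probes: of 4443 probes at least as bright as the dimmest of these 5, 87.2% were lower on slide 2. Each difference of a subunit gene from unstimulated cells is therefore given from a fit without the slide and from one with the slide as a block (the blocked fit), both with limma over all 12 arrays and with p-values adjusted over 31596 probes, beside the values on slide 1 alone. A gene was called at an adjusted p under 0.05. In RNA of a cell population, fewer cells that express a gene and less RNA per cell cannot be told apart.

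**Figure D1:**
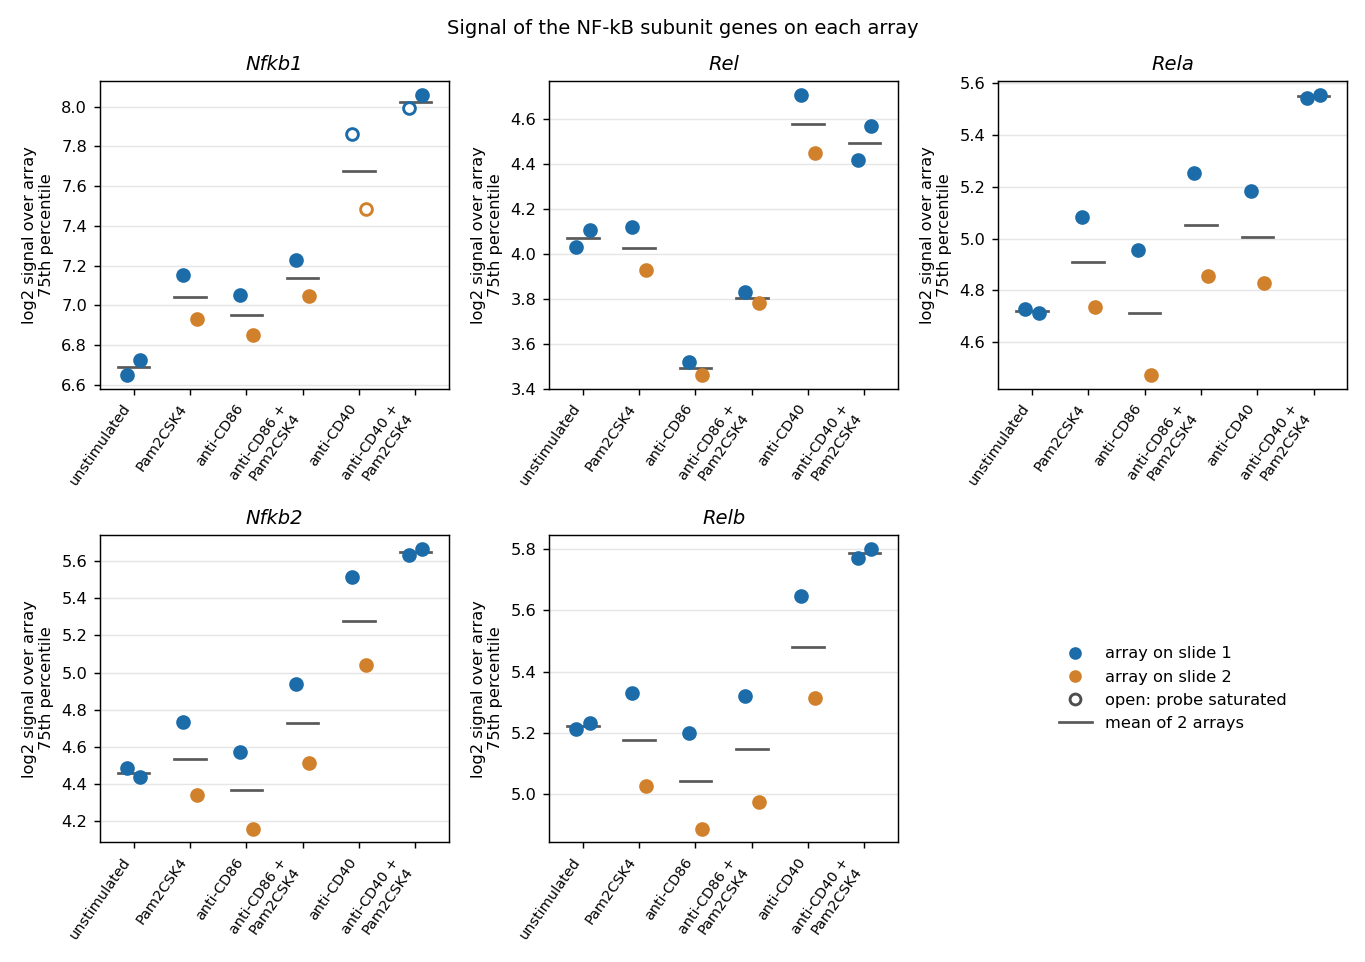
Log2 signal over the 75th percentile (vertical axis) for the brightest probe of each subunit gene in the 6 conditions (horizontal axis). Points are arrays, coloured by slide, open where the probe was saturated, and lines are means of 2 arrays. The anti-CD40 and the anti-CD40 with Pam2CSK4 arrays lie above both unstimulated arrays for all 5 genes, and Rel has its lowest values with anti-CD86.

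Nfkb1 encodes a precursor that is processed to a DNA-binding subunit without an activation domain of its own. Its signal was 6.65 and 6.73 on the unstimulated arrays. It was 7.15 and 6.93 with Pam2CSK4, 7.05 and 6.85 with anti-CD86, and 7.23 and 7.05 with both. With anti-CD40 it was 7.86 and 7.49, and with anti-CD40 and Pam2CSK4 it was 7.99 and 8.06. Every stimulated array lay above both unstimulated arrays, and the anti-CD40 conditions lay above all others. The probe was saturated on both anti-CD40 arrays and on 1 of the 2 arrays with anti-CD40 and Pam2CSK4, so the levels there are lower limits.

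Against unstimulated cells Nfkb1 was at least 1.98-fold higher with anti-CD40 (adjusted p = 0.00851), and with anti-CD40 and Pam2CSK4 the log2 difference was 1.34 ± 0.16 (SE, 2 arrays per group, adjusted p = 0.00151), or 2.53-fold with 1 array saturated. The second of these calls held when any single array was left out (adjusted p 0.00129 to 0.0195), and the first was lost without either of the unstimulated arrays (adjusted p = 0.0728 and 0.0635). The differences with Pam2CSK4 (0.35 ± 0.16, adjusted p = 0.326), anti-CD86 (0.26 ± 0.16, adjusted p = 0.365) and both (0.45 ± 0.16, adjusted p = 0.103) were not called without the slide. All 3 were called in the blocked fit, at 0.47 ± 0.072 (adjusted p = 0.0158), 0.39 ± 0.072 (adjusted p = 0.0104) and 0.57 ± 0.072 (adjusted p = 0.00227). On slide 1 alone the array with Pam2CSK4 stood 0.46, that with anti-CD86 0.37 and that with both 0.54 above the unstimulated mean. In the order of mean levels, unstimulated cells were lowest, anti-CD86, Pam2CSK4 and their combination followed with overlapping arrays, and the anti-CD40 conditions were highest, with no order between them because of the saturated arrays.

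Rel encodes c-Rel, a subunit with an activation domain that is abundant in lymphocytes. Its signal was 4.03 and 4.11 in unstimulated cells and 4.12 and 3.93 with Pam2CSK4, and these arrays overlapped. It was 3.52 and 3.46 with anti-CD86 and 3.83 and 3.78 with anti-CD86 and Pam2CSK4. It was 4.71 and 4.45 with anti-CD40 and 4.42 and 4.57 with anti-CD40 and Pam2CSK4. All 4 anti-CD86 arrays, with or without Pam2CSK4, lay below both unstimulated arrays, and all 4 anti-CD40 arrays lay above them.

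With anti-CD40 Rel rose by 0.51 ± 0.13 (1.42-fold, adjusted p = 0.0349), and in the blocked fit by 0.58 ± 0.085 (adjusted p = 0.00295). The call without the slide was kept in 5 of the 12 fits that leave out 1 array. With anti-CD40 and Pam2CSK4 the difference was 0.42 ± 0.13 (adjusted p = 0.0576, and 0.00592 in the blocked fit). With anti-CD86 it was -0.58 ± 0.13 (adjusted p = 0.0601), and in the blocked fit Rel fell, at -0.51 ± 0.085 (0.703-fold, adjusted p = 0.00768). The anti-CD86 array on slide 1 stood at -0.55 from the unstimulated mean, and that on slide 2 was lower by a further -0.057. With anti-CD86 and Pam2CSK4 the difference was -0.26 ± 0.13 (adjusted p = 0.209, and 0.125 in the blocked fit), and with Pam2CSK4 alone it was -0.045 ± 0.13 (adjusted p = 0.883). The anti-CD40 and the anti-CD40 with Pam2CSK4 arrays overlapped, and adding Pam2CSK4 to anti-CD40 gave -0.085 ± 0.13 (95% confidence interval -0.38 to 0.21).

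Rela encodes p65, the subunit with the activation domain in the most common canonical dimer. Its signal was 4.73 and 4.71 in unstimulated cells, 5.09 and 4.74 with Pam2CSK4, 4.96 and 4.47 with anti-CD86 and 5.25 and 4.86 with both. With anti-CD40 it was 5.18 and 4.83, and with anti-CD40 and Pam2CSK4 it was 5.54 and 5.55. The anti-CD40 with Pam2CSK4 arrays stood above the other 10 arrays, and those of the 4 conditions in between were lower by 0.35 to 0.48 on slide 2.

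Rela was called without the slide in 1 comparison with unstimulated cells, anti-CD40 with Pam2CSK4, where it rose by 0.83 ± 0.22 (1.78-fold, adjusted p = 0.0341). The same groups were both on slide 1, so this difference does not cross the slides, and the call was kept in 8 of the 12 fits that leave out 1 array. With anti-CD40 alone it was 0.29 ± 0.22 (adjusted p = 0.386), with Pam2CSK4 0.19 ± 0.22 (adjusted p = 0.669), with anti-CD86 -0.0052 ± 0.22 (adjusted p = 0.991), and with anti-CD86 and Pam2CSK4 0.33 ± 0.22 (adjusted p = 0.335). Rela was called in all 5 stimulations in the blocked fit, at 0.48 ± 0.056 with anti-CD40 (adjusted p = 0.0012), 0.39 ± 0.056 with Pam2CSK4 (adjusted p = 0.0142), 0.19 ± 0.056 with anti-CD86 (adjusted p = 0.0445) and 0.53 ± 0.056 with anti-CD86 and Pam2CSK4 (adjusted p = 0.0014). On slide 1 the corresponding arrays stood 0.46, 0.37, 0.24 and 0.53 above the unstimulated mean.

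Nfkb2 encodes the precursor that the non-canonical pathway processes, and the unprocessed precursor acts as an inhibitor. Its signal was 4.49 and 4.44 in unstimulated cells, 4.73 and 4.34 with Pam2CSK4 and 4.57 and 4.16 with anti-CD86, and these 3 conditions overlapped. It was 4.94 and 4.51 with anti-CD86 and Pam2CSK4. It was 5.51 and 5.04 with anti-CD40 and 5.63 and 5.67 with anti-CD40 and Pam2CSK4. The 4 arrays with anti-CD40 were higher than the other 8, and within each slide anti-CD40 gave the higher level than Pam2CSK4, anti-CD86 or their combination.

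Nfkb2 rose by 0.81 ± 0.23 with anti-CD40 (1.76-fold, adjusted p = 0.0477) and by 1.19 ± 0.23 with anti-CD40 and Pam2CSK4 (2.28-fold, adjusted p = 0.0106). The first of these calls lay close to the threshold and was kept in 2 of the 12 fits that leave out 1 array (the second in 8), while in the blocked fit the difference was 1.03 ± 0.053 (adjusted p = 0.00012). The differences with Pam2CSK4 (0.077 ± 0.23, adjusted p = 0.891), anti-CD86 (-0.094 ± 0.23, adjusted p = 0.835) and both (0.27 ± 0.23, adjusted p = 0.467) were not called. In the blocked fit, Pam2CSK4 (0.29 ± 0.053, adjusted p = 0.0243) and anti-CD86 with Pam2CSK4 (0.48 ± 0.053, adjusted p = 0.00156) were called and anti-CD86 was not (0.12 ± 0.053, adjusted p = 0.144). On slide 1 the arrays with Pam2CSK4, anti-CD86, both and anti-CD40 stood 0.27, 0.11, 0.48 and 1.05 above the unstimulated mean.

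Relb encodes the partner of mature Nfkb2 in the non-canonical dimer. Its signal was 5.21 and 5.23 in unstimulated cells, 5.33 and 5.03 with Pam2CSK4, 5.20 and 4.89 with anti-CD86 and 5.32 and 4.98 with both. With anti-CD40 it was 5.65 and 5.31, and with anti-CD40 and Pam2CSK4 it was 5.77 and 5.80. The anti-CD40 conditions lay above the unstimulated arrays, and the other stimulated arrays stood on both sides of them or, with anti-CD86, below.

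Relb was not called in any comparison with unstimulated cells without the slide. The difference was 0.26 ± 0.19 with anti-CD40 (adjusted p = 0.359) and 0.56 ± 0.19 with anti-CD40 and Pam2CSK4 (1.48-fold, adjusted p = 0.0725). Both were called in the blocked fit, at 0.42 ± 0.048 (1.34-fold, adjusted p = 0.00119) and 0.56 ± 0.046 (adjusted p = 0.000186). The differences with Pam2CSK4 (0.12 ± 0.048), anti-CD86 (-0.016 ± 0.048) and both (0.087 ± 0.048) were not called in the blocked fit, at adjusted p of 0.161, 0.833 and 0.212, and without it they ran from -0.18 to -0.044. On slide 1 the arrays of these 3 conditions stood at 0.11, -0.022 and 0.098 from the unstimulated mean and that with anti-CD40 at 0.42.

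**Figure D2:**
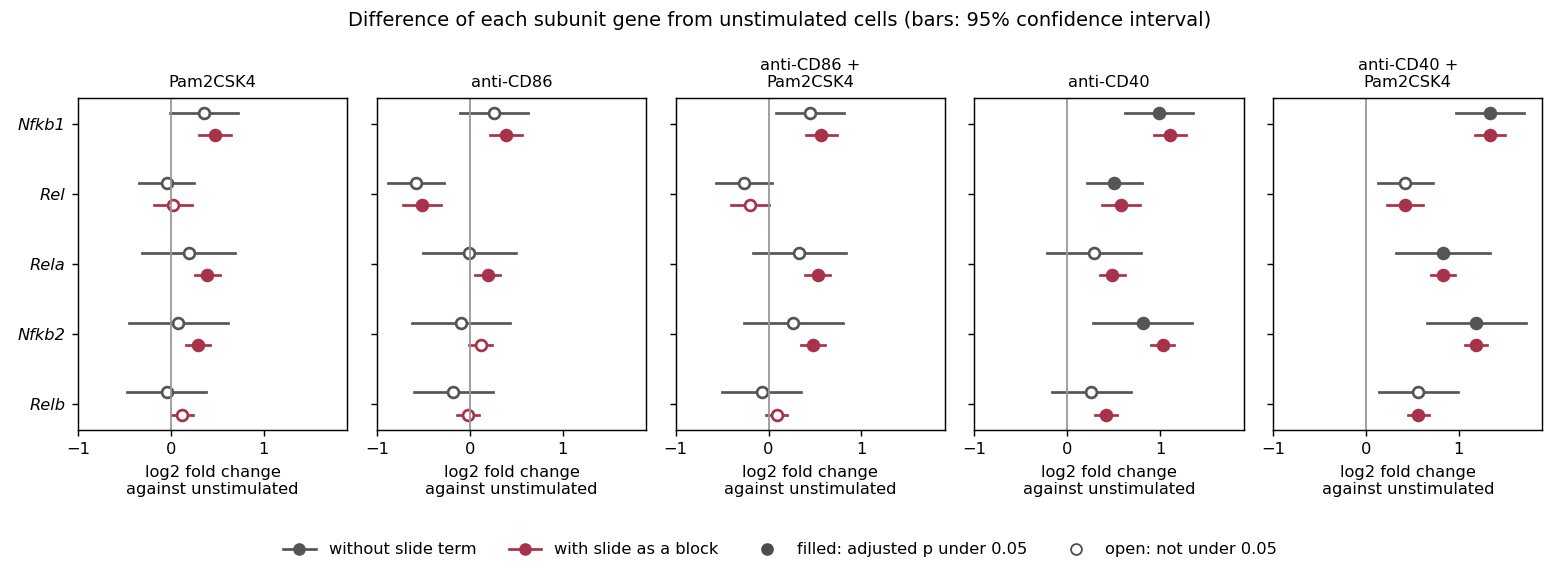
Log2 fold change of each subunit gene (rows) against unstimulated cells in the 5 stimulations (panels), from the fit without the slide (grey) and the blocked fit (red). Bars are 95% confidence intervals, and filled points passed an adjusted p of 0.05. All 10 points of the anti-CD40 conditions without the slide lie above 0, from 0.26 to 1.34, and only Rel with anti-CD86 has both intervals below 0.

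Counted over the 5 genes, anti-CD40 called 3 (Nfkb1, Nfkb2 and Rel, all higher) where 16.9% of all probes were called, and 5 in the blocked fit where 37.3% were. Anti-CD40 with Pam2CSK4 called 3 (Nfkb1, Nfkb2 and Rela, all higher) against 18.2% of all probes, and 5 against 47.5% in the blocked fit. The median log2 difference of the 5 genes was 0.51 and 0.83 in these 2 comparisons, and that of all probes -0.015 and 0.010. All 5 genes lay above the unstimulated arrays in both, as did 26.6% and 38.5% of all probes.

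In the conditions without anti-CD40 no subunit gene was called without the slide. For Pam2CSK4 the background was 0.146% of all probes, for anti-CD86 2.17%, and for anti-CD86 with Pam2CSK4 10.8%, and the unadjusted p was under 0.05 for 0, 1 and 1 of the 5 genes. In the blocked fit each of these comparisons called 3 genes, against 11.1%, 28.5% and 35.1% of all probes. They were Nfkb1, Nfkb2 and Rela higher with Pam2CSK4 and with anti-CD86 and Pam2CSK4, and Nfkb1 and Rela higher and Rel lower with anti-CD86. The arrays of Nfkb1 and Rela lay above the unstimulated ones with Pam2CSK4, those of Nfkb1 with anti-CD86, and those of Nfkb1, Nfkb2 and Rela with both, where 19.8%, 25.4% and 27.5% of all probes did so. Below the unstimulated ones lay Rel and Relb with anti-CD86 (37.0% of all probes) and Rel with anti-CD86 and Pam2CSK4 (36.6%). A test of any difference among the 6 conditions called Nfkb1, Nfkb2 and Rel (adjusted p = 0.00633, 0.0239 and 0.00606) where 20.4% of all probes were called, and all 5 genes in the blocked fit where 60.0% were.

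The scale mattered most for anti-CD40 alone. Quantile normalization and normexp background correction left all 10 differences of the anti-CD40 conditions above 0. Scaling to the median of each array moved the median of all probes by -0.57 in the comparison of anti-CD40 with unstimulated cells and by -0.11 to -0.29 in the other 4. On that scale Nfkb1 and Nfkb2 stayed at 0.42 and 0.25 with anti-CD40, Rel, Rela and Relb were at -0.059, -0.28 and -0.31, and no subunit gene was called in any comparison. On slide 1 the median intensities were 17.3 to 23.6, and the dimmest spots called above background had 19.5 to 26.7 per array. The anti-CD40 array on slide 2 had a median of 51.3, against 27.7 for its dimmest such spot. The reason for the shift on that scale was not tested.

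The combinations were then compared with their single signals. Adding anti-CD86 to Pam2CSK4 gave differences of -0.22 (Rel) to 0.19 (Nfkb2) for the 5 genes, with none called in either fit, where 0.0633% of all probes and 11.0% in the blocked fit were called. These groups have 1 array on each slide, so the differences are the same in both fits. Adding Pam2CSK4 to anti-CD86 gave 0.10 (Relb) to 0.36 (Nfkb2), with none called without the slide (0.225% of all probes). In the blocked fit Nfkb2 (0.36 ± 0.050, adjusted p = 0.0156) and Rela (0.34 ± 0.053, adjusted p = 0.021) were called, where 7.74% of all probes were. Both genes were higher with the combination on each slide, by 0.35 for Nfkb2 and 0.38 for Rela on slide 2.

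Adding anti-CD40 to Pam2CSK4 called Nfkb1 (0.98 ± 0.16, adjusted p = 0.00865) and Nfkb2 (1.11 ± 0.23, 2.16-fold, adjusted p = 0.0223) where 9.97% of all probes were called. It called all 5 genes in the blocked fit, against 31.5% of all probes, with Nfkb2 at 0.90, Nfkb1 at 0.86, Relb at 0.45, Rela at 0.44 and Rel at 0.40. Nfkb1 was saturated on 1 array with anti-CD40 and Pam2CSK4, so its differences and its place in this order are not fixed. Adding Pam2CSK4 to anti-CD40 called none (2.91% of all probes) and, in the blocked fit, Rela alone (0.34 ± 0.056, 1.27-fold, adjusted p = 0.0113), where 15.2% of all probes were called. Nfkb1, Nfkb2 and Relb stood 0.23, 0.16 and 0.15 higher in that fit, with adjusted p of 0.0794, 0.0884 and 0.0919, and the Nfkb1 value is limited by the saturated anti-CD40 arrays.

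Between the 2 combinations, anti-CD40 with Pam2CSK4 stood above anti-CD86 with Pam2CSK4 for all 5 genes. Without the slide Nfkb1 (0.89 ± 0.16, adjusted p = 0.011), Nfkb2 (0.92 ± 0.23, adjusted p = 0.0381) and Rel (0.69 ± 0.13, 1.61-fold, adjusted p = 0.0133) were called where 12.3% of all probes were. All 5 were called in the blocked fit against 34.6%, and Rela had the smallest difference (0.30 ± 0.056, adjusted p = 0.008). The arrays of all 5 genes did not overlap between these groups, as was the case in the same direction for 35.6% of all probes. The size of the Nfkb1 difference is limited by its saturated array with anti-CD40 and Pam2CSK4.

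The interaction, the log2 effect of a combination minus the sum of the effects of its signals, was not called for the brightest probe of any subunit gene. For anti-CD86 and Pam2CSK4 it ran from -0.17 (Nfkb1) to 0.36 (Rel) without the slide and from -0.29 (Nfkb1) to 0.29 (Rel) in the blocked fit, and 0.0190% and 0.234% of all probes were called. For anti-CD40 and Pam2CSK4 it ran from -0.039 (Rel) to 0.35 (Rela and Relb) and from -0.25 (Nfkb1) to 0.027 (Relb), against 1.16% and 8.59% of all probes. The size and sign of the Nfkb1 value are not fixed for anti-CD40 and Pam2CSK4, because 3 of its arrays were saturated. The 95% confidence interval of the Rela interaction in the blocked fit was -0.24 to 0.16 for anti-CD40 and -0.23 to 0.13 for anti-CD86. Without adjustment, p was under 0.05 for 0 of 5 genes without the slide in both combinations and, in the blocked fit, for 2 and 0 for the combinations with anti-CD86 and anti-CD40.

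**Figure D3:**
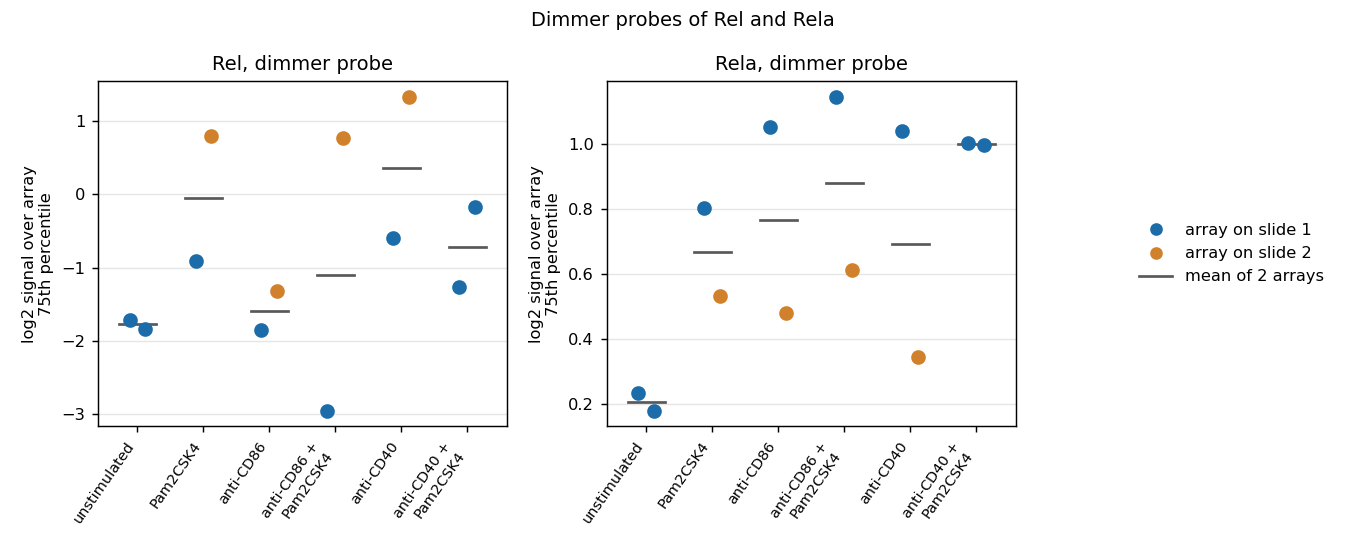
Log2 signal over the 75th percentile (vertical axis) of the dimmer probes of Rel and Rela in the 6 conditions (horizontal axis). Points are arrays, coloured by slide, and lines are means of 2 arrays. The Rel probe spans -2.95 to 1.33 and is higher on slide 2 in all 4 conditions with an array on both slides, and the Rela probe is lowest on the unstimulated arrays.

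Rel and Rela each had another, dimmer probe, and these behaved differently. The dimmer Rela probe gave 0.23 and 0.18 in unstimulated cells and 0.35 to 1.15 on the 10 stimulated arrays, all above. It was called in all 5 stimulations in the blocked fit, at 0.72 to 0.93 ± 0.10, with anti-CD86 at 0.82 (adjusted p = 0.00353) where the bright probe gave 0.19. It also had an interaction of anti-CD40 and Pam2CSK4 of -0.67 ± 0.15 in that fit (adjusted p = 0.0478), which the bright probe did not show (-0.044 ± 0.083).

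The dimmer Rel probe gave -1.71 and -1.83 in unstimulated cells, -0.90 and 0.80 with Pam2CSK4 and -1.86 and -1.32 with anti-CD86. It gave -2.95 and 0.76 with anti-CD86 and Pam2CSK4, -0.60 and 1.33 with anti-CD40 and -1.27 and -0.17 with anti-CD40 and Pam2CSK4. It was higher on slide 2 in all 4 conditions, by 0.54 to 3.72, opposite to the bright Rel probe, and it was called in no comparison. The statements on Rel therefore rest on the bright probe alone.

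Across the 12 arrays the subunit genes were alike to different degrees, given here as a description because arrays share conditions and slides. Pearson's r was 0.96 between Nfkb1 and Nfkb2 and 0.96 between Nfkb2 and Relb, and lowest between Rel and Rela (0.59). Nfkb1 was saturated on 3 of these arrays, so each r that involves it includes levels that are lower limits. By the rule of the highest r over the 12 arrays among 9936 other named genes that were unsaturated and well above background throughout, the genes most like Nfkb1 were Mybpc2, Nolc1 and Lpcat1 (r = 0.99 each). Those most like Nfkb2 were Stx6, Ipo4 and Nle1 (0.99 each), and those most like Relb were Eif6, Bag5 and Mxi1 (0.99 each). Rel was most like Ubtd2, Amigo2 and Rras2 (0.98, 0.97 and 0.96) and Rela most like Rilpl2, Zbtb17 and Zc3h10 (0.98, 0.97 and 0.97).

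The genes around the subunits were followed with lists that give inhibitors, kinases, regulators of NIK, receptors and targets. In the order Pam2CSK4, anti-CD86, both, anti-CD40, and anti-CD40 with Pam2CSK4, the share of all probes called higher was 0.101%, 0.978%, 3.41%, 6.17% and 8.54%, and called lower 0.0443%, 1.19%, 7.38%, 10.7% and 9.70%. In the blocked fit these shares were 4.71%, 13.0%, 14.5%, 15.7% and 23.8% higher and 6.40%, 15.5%, 20.6%, 21.6% and 23.7% lower. Differences of named genes are from the fit without the slide, and those called there were also called, in the same direction, in the blocked fit. Of 6 IkB proteins, which hold NF-kB dimers back or, for the nuclear members, adjust transcription with them, 1 was called higher with Pam2CSK4, 0 with anti-CD86, 3 with anti-CD86 and Pam2CSK4, 4 with anti-CD40 and 4 with anti-CD40 and Pam2CSK4, and none lower, and in the blocked fit 4, 1, 4, 5 and 6 were called higher and none lower. Their median log2 differences were 0.32, -0.036, 0.37, 0.93 and 1.52, where those of all probes ran from -0.07 to 0.010. Nfkbiz, a nuclear IkB protein, rose by 1.81 ± 0.14 with Pam2CSK4 (adjusted p = 0.00482), 1.58 ± 0.14 with anti-CD86 and Pam2CSK4 (adjusted p = 0.00484), 0.96 ± 0.14 with anti-CD40 (adjusted p = 0.00634) and 2.41 ± 0.14 with anti-CD40 and Pam2CSK4 (adjusted p = 6.05e-05). Nfkbid, another nuclear member, rose by 1.23 ± 0.24 with anti-CD86 and Pam2CSK4 (adjusted p = 0.0234), 1.61 ± 0.24 with anti-CD40 (adjusted p = 0.00665) and 2.27 ± 0.24 with anti-CD40 and Pam2CSK4 (adjusted p = 0.000939). Nfkbie, a cytoplasmic inhibitor, rose in the same 3 conditions, by 0.52, 1.32 and 1.52 ± 0.092 (adjusted p = 0.0184, 0.000463 and 6.60e-05). Nfkbia was saturated on all 12 arrays, so no fold is given for it, but the counts and medians of the list include it.

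Of 11 genes of the IKK complex and its activating kinases, 0, 0, 1, 1 and 2 were called higher in the same order of stimulations and none lower, and in the blocked fit 1, 4, 1, 4 and 4 were called higher and 0, 0, 4, 1 and 3 lower. Ikbke, a kinase related to the IKK subunits, was called in the last 3, at 1.16 ± 0.15, 1.12 ± 0.15 and 1.07 ± 0.15 (adjusted p = 0.0105, 0.00494 and 0.00317), and Map3k14, which encodes NIK, at 0.64 ± 0.17 with anti-CD40 and Pam2CSK4 (adjusted p = 0.0322). Of 9 genes listed around the degradation of NIK and the removal of ubiquitin chains, 3 were called higher with anti-CD40 and 4 with anti-CD40 and Pam2CSK4. In the other stimulations 0 were called higher, and none was called lower in any. In the blocked fit 4, 3, 3, 4 and 5 of these 9 were called higher and 1, 2, 1, 1 and 2 lower, so that calls were made in all 5 stimulations. Birc3 and Birc2, ubiquitin ligases that mark NIK for degradation, stood at 0.94 ± 0.17 and 0.88 ± 0.11 with anti-CD40 (adjusted p = 0.0123 and 0.00419) and at 1.35 ± 0.17 and 0.98 ± 0.11 with anti-CD40 and Pam2CSK4 (adjusted p = 0.00185 and 0.0014). The medians of these 2 lists with anti-CD40 and Pam2CSK4 were 0.085 and 0.53.

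Of 18 receptors and adaptors, 0, 0, 2, 5 and 7 were called higher and 0, 1, 2, 3 and 3 lower, and in the blocked fit 4, 7, 7, 8 and 9 higher and 2, 5, 4, 6 and 6 lower. Tlr1, which pairs with TLR2, rose with anti-CD86 and Pam2CSK4 (0.91 ± 0.15, adjusted p = 0.0154), anti-CD40 (1.73 ± 0.15, adjusted p = 0.00107) and anti-CD40 with Pam2CSK4 (1.85 ± 0.15, adjusted p = 0.000285). Traf1, an adaptor of the CD40 family of receptors, rose by 1.06 ± 0.14 and 1.65 ± 0.14 in both anti-CD40 conditions (adjusted p = 0.00393 and 0.000298). Traf5, another adaptor, fell there (-1.30 ± 0.16 and -1.31 ± 0.16, adjusted p = 0.00333 and 0.00163), as did Malt1, a protease that links antigen receptors to IKK (-0.86 ± 0.10 and -1.41 ± 0.10, adjusted p = 0.00282 and 0.000162), which also fell with anti-CD86 and Pam2CSK4 (-0.58 ± 0.10, adjusted p = 0.0183). Ltbr, the lymphotoxin beta receptor, was called lower in the 4 stimulations other than Pam2CSK4 alone, with anti-CD86 (-0.57 ± 0.11, adjusted p = 0.0464), anti-CD86 and Pam2CSK4 (-0.95 ± 0.11, adjusted p = 0.00846), anti-CD40 (-0.50 ± 0.11, adjusted p = 0.0239) and anti-CD40 with Pam2CSK4 (-0.92 ± 0.11, adjusted p = 0.00166). With Pam2CSK4 alone Ltbr stood at -0.60 ± 0.11 (adjusted p = 0.10, and 0.00548 in the blocked fit).

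Of 23 target genes, 22 were on the array and 21 could be tested, and 5, 1, 7, 10 and 12 were called higher and 0, 2, 0, 0 and 0 lower. Bcl2l1, which encodes an anti-apoptotic protein, rose by 2.21 ± 0.13 with Pam2CSK4 (adjusted p = 0.00395), 2.28 ± 0.13 with anti-CD86 and Pam2CSK4 (adjusted p = 0.00071), 3.85 ± 0.13 with anti-CD40 (adjusted p = 2.77e-05) and 4.72 ± 0.13 with anti-CD40 and Pam2CSK4 (adjusted p = 8.39e-07). Il2ra, a chain of the interleukin-2 receptor, rose by 1.77, 1.74, 3.63 and 4.22 ± 0.12 in the same conditions (adjusted p = 0.00395, 0.00205, 2.77e-05 and 9.39e-07). Icam1, an adhesion molecule, rose in all 5 stimulations, by 1.49 with Pam2CSK4, 0.72 with anti-CD86, 1.85 with both, 2.70 with anti-CD40 and 2.84 with anti-CD40 and Pam2CSK4, each ± 0.12 (adjusted p = 0.00482, 0.0314, 0.00108, 6.63e-05 and 6.59e-06). Il6 and Ccl3, a cytokine and a chemokine, fell with anti-CD86 (-0.89 ± 0.16 and -0.52 ± 0.097, adjusted p = 0.0436 each) and were called in no other stimulation without the slide. The median of the target genes was 0.51, -0.23, 0.30, 0.44 and 1.66. In the blocked fit 14, 4, 13, 14 and 19 of the 21 were called higher and 1, 5, 1, 1 and 1 lower. Cd83 and Junb were saturated on all 12 arrays, Ltb on 6 and Bcl2a1a on 2, and these counts and medians include them. Ltb was the gene called lower in the blocked fit with Pam2CSK4 and with anti-CD40 and Pam2CSK4.

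**Figure D4:**
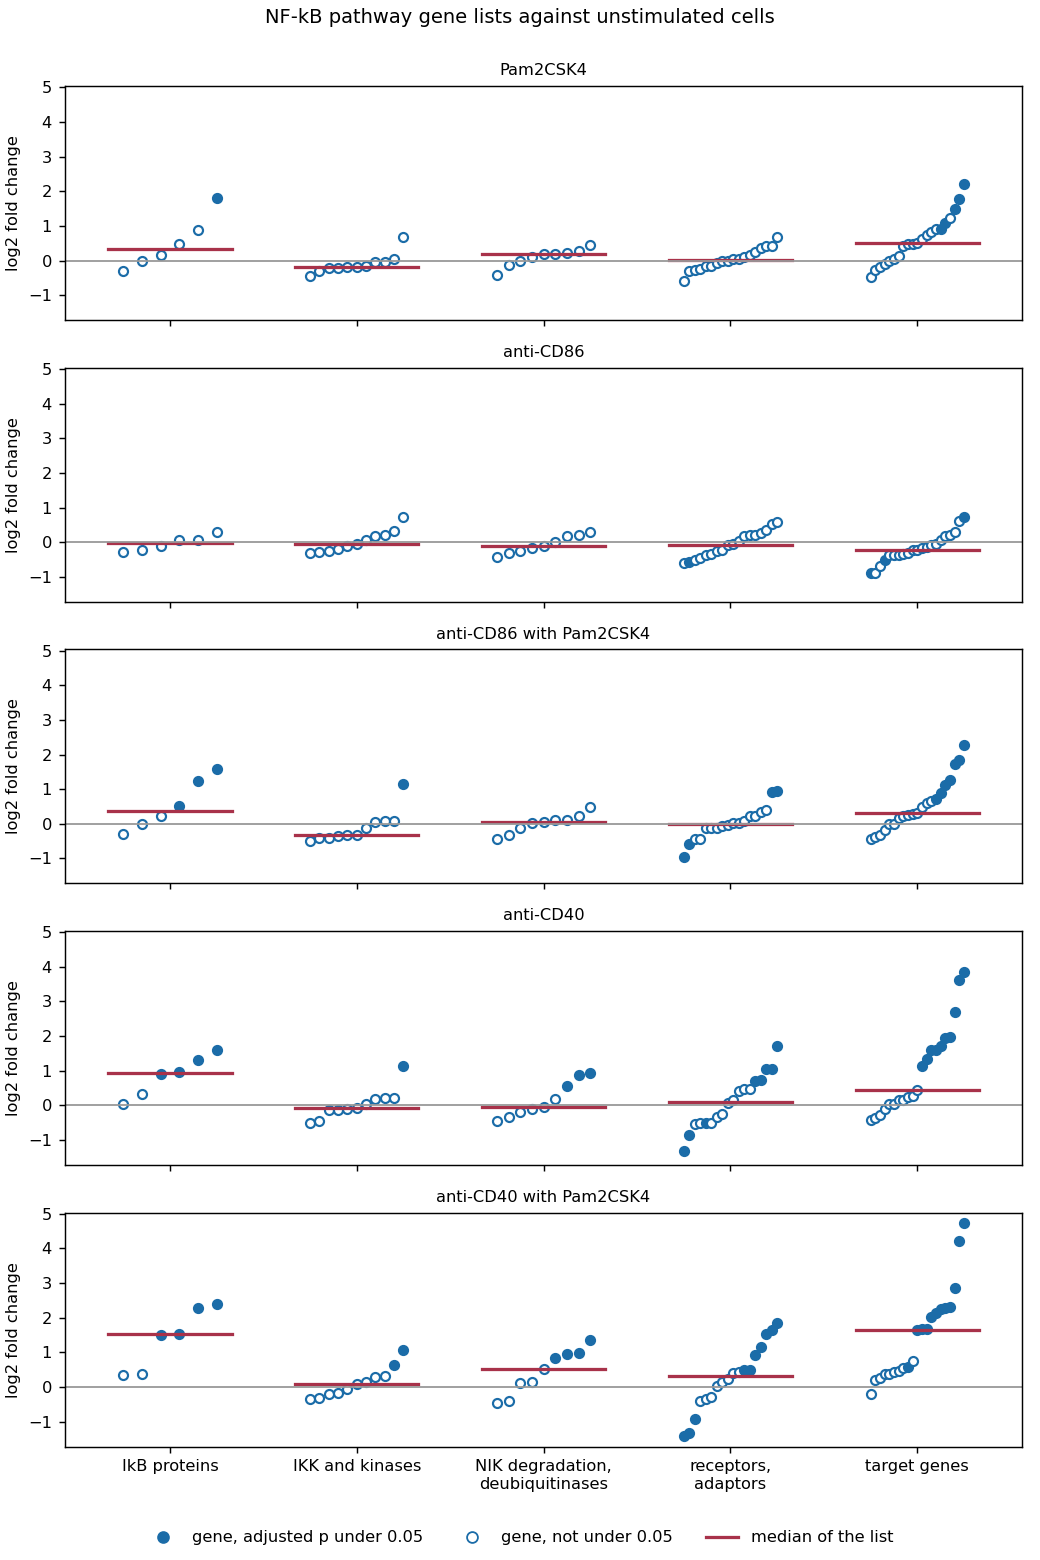
Log2 fold change against unstimulated cells without the slide (vertical axis) of each gene in 5 lists of the NF-kB pathway (horizontal axis) for the 5 stimulations (panels). Points are genes ordered by value within a list, filled where the adjusted p was under 0.05, and red lines are medians of the lists. The target genes reach from -0.21 to 4.72 with anti-CD40 and Pam2CSK4, and the genes of the IKK complex and activating kinases stay between -0.50 and 1.16 in all panels.

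Markers of the labelled cells and of other cells were read on the same arrays. All 10 B cell markers were well above background on every array, with a summed signal of 504 to 793 times the 75th percentile. Cd79b and Blnk were saturated on all 12 arrays, so that this sum also moves with the percentile, which was lowest with anti-CD40 and Pam2CSK4 (intensities of 234 and 270, against 307 and 349 in unstimulated cells), and it is not compared between conditions. The same holds for the 4 plasma cell markers (all above background, sum 179 to 262), among which Jchain was saturated throughout.

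Sums of T cell markers, of NK cell markers and of liver, pancreas, kidney and muscle markers were highest in unstimulated cells. Both unstimulated arrays lay on slide 1, so stimulated ranges are also given for slide 1 alone. Of 8 T cell markers 7 to 8 were above background. Their sum was 40.2 to 41.2 in unstimulated and 27.2 to 38.0 in stimulated cells (34.3 to 38.0 on slide 1). Of 6 NK cell markers 5 to 6 were above background. Their sum was 15.4 to 15.7 in unstimulated and 8.76 to 13.4 in stimulated cells (10.4 to 13.4 on slide 1). All 9 myeloid markers were above background, with a sum of 324 to 500 over the arrays. S100a9 was saturated on all arrays, so this sum also moves with the percentile and is not compared between conditions. By gene, S100a9 included, 0, 1, 5, 3 and 5 of these 9 were called lower in the order of stimulations used above, and none higher. Of all probes 0.0443%, 1.19%, 7.38%, 10.7% and 9.70% were called lower. In the blocked fit 3, 4, 5, 4 and 5 were called lower and 1, 0, 1, 0 and 1 higher. There 6.40%, 15.5%, 20.6%, 21.6% and 23.7% of all probes were called lower. Of 12 markers of liver, pancreas, kidney and muscle 1 to 7 were above background. Their sum was 7.50 to 7.63 in unstimulated cells and 0.590 to 0.740 with anti-CD40 and Pam2CSK4. In the other stimulations it was 3.85 to 5.70 (4.78 to 5.70 on slide 1). The subunit genes had their largest median difference from unstimulated cells with anti-CD40 and Pam2CSK4. In that comparison, 3 of the 4 such markers that could be tested were called lower (median log2 difference -3.24). The other marker stood at 1.12 and was called higher in the blocked fit. The part of these differences in the values of the subunit genes was not tested.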

How the data were processed

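RNA was labelled with Cy3 and hybridised to a custom mouse array, and images were extracted by the authors with Feature Extraction 10.5.1.1. The deposited scanner files hold intensities, of which the background-corrected processed signal was used. A second table deposited by the authors, made with GeneSpring per the methods, holds log2 values that equalled the log2 processed signal minus a constant per array and was used as an alternative.

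Control spots and outlier spots (5 to 35 per array) were left out, saturated spots (987 to 1206 per array) were kept, and spots of 1 probe were averaged. Values were scaled to the 75th percentile of each array. Of the 61307 probes, 31666 stood well above background in both replicates of some condition, and the 31596 without a missing value (70 had one) were tested, with limma 3.58.1 in R 4.3.3, 1 coefficient per condition, empirical Bayes moderation and Benjamini-Hochberg adjustment over all 31596 probes. Scripts were tested on simulated data. Only 2 arrays per condition limit the precision. The study describes the replicates as biological, and the labels do not name the animals, so p-values of the fit without the slide measure the spread between these samples. Those of the blocked fit measure the spread left once a shared slide difference is taken out. In the conditions with 1 array per slide, that difference is also the one between replicate numbers. The labels give female mice and the methods either sex. Where Nfkb1 was saturated on all arrays of a group, a fold is a lower limit. Where it was saturated on 1 of 2 arrays, the size of a difference is limited as well.

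The members and gene lists were chosen with earlier results of these data known. Besides the 5 members, up to 2 called genes with the highest and up to 2 with the lowest difference were eligible to be named from each list, and the 3 genes most like each member. Promoter sequences come from RefSeq (GRCm38.p6), and the scanner files give no genome position for the subunit probes. Alternatives were other normalizations, background corrections and filters, the slide as a block, slide 1 alone, a replicate block, other probes, saturated spots left out, the methods' one way test and leaving out each array. Replicate numbers were not used to pair samples in the main fit. Correlations of deviations ran from -0.107 to 0.674, with 6 of 15 over 0.1. These 6 were the pairs among the 4 conditions with 1 array per slide, where replicate number and slide cannot be told apart. Python 3.11.15 and matplotlib 3.10.9 were used for sequences and figures.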

Additional observations from a re-analysis of the deposited data

How the results depend on the processing

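The counts of called subunit genes rest on 2 arrays per condition and on the slides. All 5 probes were well above background, and Nfkb1 was saturated on 3 arrays. With saturated spots left out, Nfkb1 had no value with anti-CD40 and could not be called there. The counts were then 2 for anti-CD40 and 2 for the test of any difference. In the order Pam2CSK4, anti-CD86, both, anti-CD40, and anti-CD40 with Pam2CSK4, each compared with unstimulated cells, the counts of 0, 0, 0, 3 and 3 became 3, 3, 3, 5 and 5 with the slide as a block, and it moved 5 others, 3 of them to 5 (anti-CD40 with Pam2CSK4 against Pam2CSK4, the same against anti-CD86 with Pam2CSK4, and any difference), 1 to 2 (anti-CD86 with Pam2CSK4 against anti-CD86) and 1 to 1 (anti-CD40 with Pam2CSK4 against anti-CD40). On slide 1 alone they were 3 for anti-CD86 with Pam2CSK4, 5 for anti-CD40, 5 for anti-CD40 with Pam2CSK4 (4 against Pam2CSK4) and 5 for any difference. Median normalization gave 0 in every comparison, quantile normalization 2 for anti-CD86, 1 for anti-CD86 with Pam2CSK4, 5 for anti-CD40 with Pam2CSK4 (4 against Pam2CSK4) and 5 for any difference, and normexp 1 for anti-CD86 alone and 1 with Pam2CSK4. Without a filter the counts were 1 for anti-CD40, 1 for anti-CD40 with Pam2CSK4 against Pam2CSK4 and 0 against anti-CD86 with Pam2CSK4, and with probes above background on all 12 arrays 1 for anti-CD86. With only the compared arrays they were 0 for anti-CD40, 5 for anti-CD40 with Pam2CSK4, and 0 for the latter against either Pam2CSK4 condition. A replicate block gave 1 for anti-CD86, 1 for anti-CD86 with Pam2CSK4, 5 for anti-CD40 with Pam2CSK4 (5 against Pam2CSK4) and 5 for any difference. With 1 array left out the counts ran from 0 to 3 for anti-CD40, 1 to 4 for anti-CD40 with Pam2CSK4, 0 to 3 for the latter against either Pam2CSK4 condition, 0 to 1 for anti-CD86 and 2 to 3 for any difference. The 0 for anti-CD40 came without either unstimulated array. Where 1 array was left in a group, it was assumed to vary like the others. The authors' table changed no count. The number of all probes called also moved between the settings, in 172 comparisons, and stayed similar in 140. Apart from the blocked fit, the counts above are not set against the share of all probes called. They therefore do not describe the subunit genes alone. The cause of the changes in these counts was not tested.

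These log2 differences, from unstimulated cells unless stated, changed sign, and of them Rel with anti-CD40 had been called. Median normalization gave -0.12 (Nfkb2) and -0.0042 (Rela) with Pam2CSK4, -0.020 (Nfkb2) with anti-CD86 and Pam2CSK4, and -0.28 (Rela) and -0.31 (Relb) with anti-CD40, and it turned Rel with anti-CD40 to -0.059. Quantile normalization gave 0.064 (Rel) and 0.10 (Relb) with Pam2CSK4, 0.051 (Nfkb2), 0.15 (Rela) and 0.012 (Relb) with anti-CD86 and 0.13 (Relb) with both, and normexp 0.037 (Relb, Pam2CSK4) and 0.068 (Rela, anti-CD86). The slide as a block and slide 1 alone gave 0.024 and 0.051 (Rel) and 0.12 and 0.11 (Relb) with Pam2CSK4, 0.12 and 0.11 (Nfkb2) and 0.19 and 0.24 (Rela) with anti-CD86, and 0.087 and 0.098 (Relb) with both. The mean over probes gave 0.84 (Rel, Pam2CSK4), 0.28 (Rela, anti-CD86), 0.21 (Rel, anti-CD86 with Pam2CSK4) and -0.099 (Rel, anti-CD40 with Pam2CSK4 against Pam2CSK4). With 1 array left out, the range was -0.25 to 0.24 (Rela) and -0.30 to 0.11 (Nfkb2) with anti-CD86, -0.12 to 0.27 (Nfkb2), -0.14 to 0.051 (Rel) and -0.20 to 0.11 (Relb) with Pam2CSK4, and -0.25 to 0.098 (Relb) with both.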
